A study of Mus musculus with 6 samples.

Results

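The neuregulin and ErbB receptor genes are a small group of growth factor signalling genes, here Nrg1 and Hbegf, which encode ligands, and Egfr, Erbb2, Erbb3 and Erbb4, which encode the receptor tyrosine kinases. They were taken by symbol, through their Ensembl identifiers, from the 52550 mouse genes counted in each library, and all 6 were found. The study compared the hearts of mice on postnatal day 7, taken whole, between 3 control hearts (genotype label ctrl) and 3 GR-cKO hearts, whose cardiomyocytes lack Nr3c1, the gene of the glucocorticoid receptor. Libraries are called biological replicates by the labels and were made from 3′ ends of polyadenylated transcripts. Values are listed in the order of replicates 1, 2 and 3 of a group. Strain, sex, Cre driver, deleted exon and the alleles of control mice were not named there. Only cardiomyocytes are targeted, so by design endothelial cells, fibroblasts and other cells of these hearts keep the gene. Nr3c1 was not measured by cell type here.

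ErbB receptors signal as pairs. Neuregulin-1, made in the heart mainly by endothelial and endocardial cells, binds ErbB3 and ErbB4, and ErbB2, which has no known ligand of its own, is the preferred partner. In cardiomyocytes the ErbB4 and ErbB2 pair drives the Ras-ERK and PI3K-AKT cascades and is known for its roles in trabeculation, growth and the proliferation of immature muscle cells. Heparin-binding EGF-like growth factor, the product of Hbegf, binds EGFR and ErbB4. Glucocorticoids are reported to restrain this growth pathway in the neonatal heart, and the comparison of control and GR-cKO hearts asks whether the messenger RNA levels of its members differ when cardiomyocytes lose the receptor.

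Libraries held 18135540 to 22999192 reads, of which 1.63 to 2.01% were spike-in transcripts. Nr3c1 fell, from 115 ± 15.8 CPM (read counts scaled to library size over tested genes, by TMM) in control hearts to 54.3 ± 4.47 CPM in GR-cKO hearts (n = 3 per group, ± SD), with an edgeR adjusted p of 0.00101. It was the single gene past the adjusted threshold of 0.05 among 14860 tested, 0.00673% of them. At an unadjusted p under 0.05 there were 624 genes (4.2%), and for 1482 genes (9.97%) the CPM ranges of the groups did not overlap, with GR-cKO higher in 4.7% and lower in 5.27%. GR-cKO replicate 3 stood apart from the other libraries. Gm42418, which overlaps ribosomal RNA sequence, took 10.9% of its reads against 5.47 to 7.69% in the other 5. Its summed level of 8 cardiomyocyte markers was 57050 CPM against 45200 to 49950 CPM. The markers disagreed in this heart: Actc1 (6700 CPM) and Ryr2 (815 CPM) lay within the range of the other hearts, and the rest were highest in it. All 8 of these markers were detected in each heart, as the tissue label has it. Control replicate 2 stood apart in markers of fat. Ucp1 was at 89.3 CPM in it against 0 to 18.8 CPM in the other 5 hearts, and Adipoq at 13.2 against 0 to 4.43 CPM. Of the 6 adipose markers all but Cidea were highest in this heart. The part of fat in the other levels of control replicate 2 was not tested. In whole hearts, fewer cells of a type and less RNA per cell cannot be told apart.

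Of the 6 genes, none passed the adjusted threshold in edgeR, DESeq2 or limma voom, and 1, Nrg1, had an unadjusted p under 0.05 with each of these tools. Nrg1 was the exception in size: it was at a lower level in every GR-cKO heart than in any control heart, while the other 5 genes differed between group means by at most 0.19 on the log2 scale and had overlapping groups.

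Nrg1 (ENSMUSG00000062991, chromosome 8, 31814551 to 32884029, minus strand, GRCm38) was the scarcest of the 6. It had 30, 26 and 21 reads in control hearts 1 to 3, against 14, 6 and 6 reads in GR-cKO hearts 1 to 3. Levels were 1.31, 1.34 and 1.10 CPM in the control hearts and 0.782, 0.283 and 0.323 CPM in the GR-cKO hearts. The groups did not overlap, and GR-cKO replicate 1 was nearest to the controls. The same held for 5.27% of all tested genes in the same direction. Group means were 1.25 ± 0.129 and 0.462 ± 0.277 CPM (SD, n = 3 each). On the log2 scale GR-cKO hearts differed from controls by -1.43 (SE 0.68, 95% interval -2.85 to -0.02). The unadjusted edgeR p was 0.0476, which 2.13% of tested genes met in this direction, and the adjusted p was 0.998.

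The few reads of Nrg1 limit its precision. Exact Clopper-Pearson intervals of 95%, which cover counting error only, ran from 0.429 to 1.32 CPM of all mouse gene reads in GR-cKO replicate 1 and from 0.688 to 1.70 in control replicate 3, so those libraries are not separated at this depth. In GR-cKO replicates 2 and 3 the upper bounds were 0.650 and 0.635, below the lower bounds of all 3 control hearts (0.688 to 0.897). The minimum level of the filter, 0.509 CPM in at least 3 libraries, was met by all 3 control hearts and by 1 GR-cKO heart, so the control hearts alone would have passed the gene. Among the 1517 tested genes with a mean level within 1.5-fold of that of Nrg1, the median SE was 0.705 and 36 had a log2 fold change as low or lower. The log2 fold change stayed below 0 with each heart left out, from -2.02 without GR-cKO replicate 1 (unadjusted p = 0.0255) to -1.18 without GR-cKO replicate 2 (unadjusted p = 0.141).

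The annotation gives Nrg1 18 transcripts, of which 12 are protein-coding. These have 10 distinct 3′ ends within 11.8 kb, so a 3′ read count adds up isoforms that start at different promoters, and it does not tell which of them was lower. Marker sums of endothelial cells, and of endocardial and valve cells, overlapped between groups, the second by a narrow margin. The 10 endothelial markers summed to 1762 to 2040 CPM in control and 1909 to 2146 CPM in GR-cKO hearts, with 4 higher and 6 lower and none at 0. The 7 endocardial and valve markers summed to 461.6 to 558.8 CPM in control and 374.9 to 464.7 CPM in GR-cKO hearts, with 3 higher and 4 lower and none at 0. Most of this sum was Postn, at 372, 460 and 371 CPM in control against 355, 369 and 275 CPM in GR-cKO hearts 1 to 3. Postn by itself did not overlap, with GR-cKO lower, as in 5.27% of all tested genes. The part of such cells in the Nrg1 difference was not tested.

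**Figure D1:**
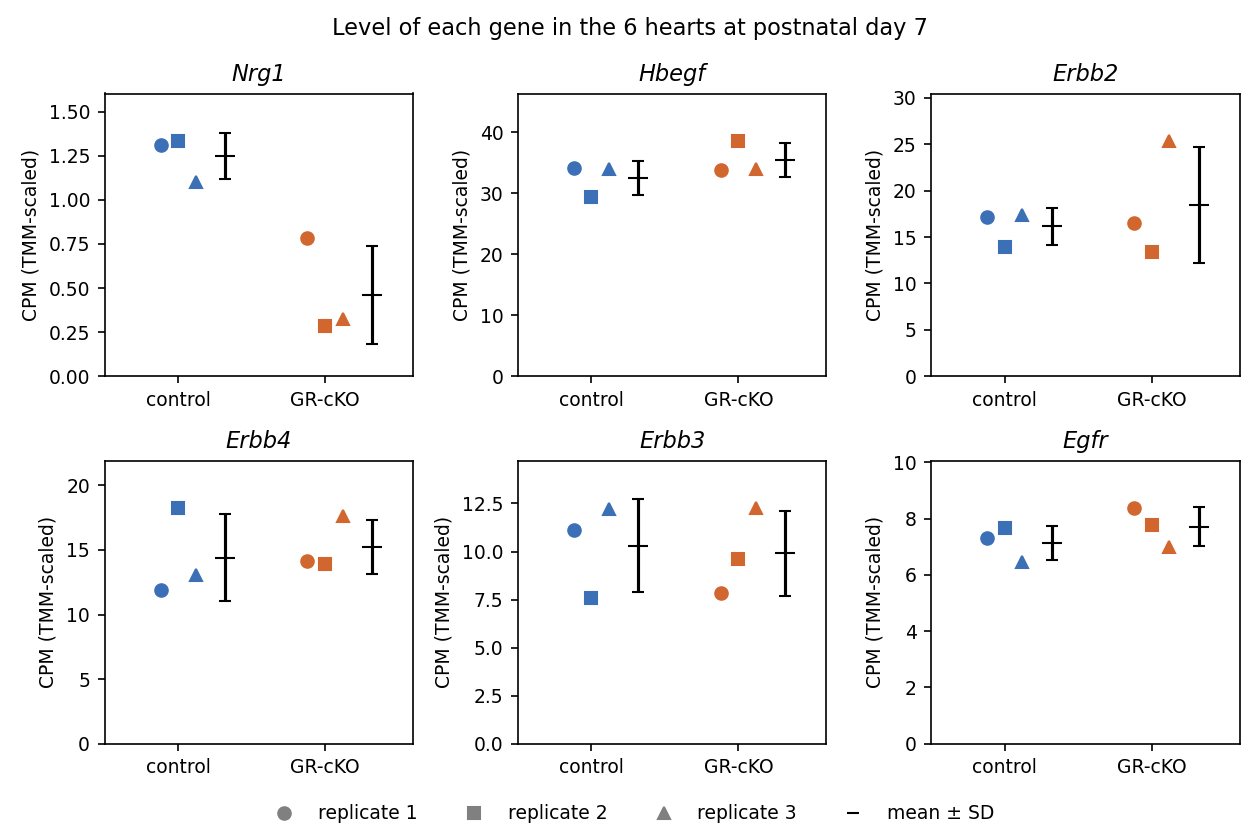
Level of each of the 6 genes in CPM (linear axis from 0) in 3 control and 3 GR-cKO hearts, 1 symbol per heart, with the mean and SD of each group beside the points. Nrg1 is the only panel in which the groups do not overlap, with control hearts from 1.10 to 1.34 CPM and GR-cKO hearts from 0.283 to 0.782 CPM.

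Hbegf (ENSMUSG00000024486, chromosome 18, 36504927 to 36515805, minus strand) was the most abundant of the 6. It was at 34.1, 29.3 and 34.0 CPM in control hearts 1 to 3 against 33.8, 38.6 and 33.9 CPM in GR-cKO hearts 1 to 3. Control replicate 2 was lowest and GR-cKO replicate 2 highest, and on this scale the other 4 hearts lay between 33.8 and 34.1 CPM. As CPM of all mouse gene reads, without TMM factors, GR-cKO replicate 3 was at 30.7, near control replicate 2 at 29.7. The log2 fold change of Hbegf was 0.13 (SE 0.14, edgeR adjusted p = 0.998). Its 95% interval, from -0.16 to 0.41, corresponds to ratios of 0.894 to 1.33, the narrowest of the 6 genes. The gene lies 2.89 Mb from Nr3c1 on the same chromosome.

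The other EGF family ligands had few reads. Hbegf made up 77.5 to 82.8% of the reads of all 11 ligand genes in a library, and Nrg1 2.61 to 3.57% in control and 0.598 to 1.79% in GR-cKO hearts. Egf, the founding ligand of EGFR, came next. It was at 3.54, 4.11 and 2.52 CPM in control against 4.80, 5.80 and 3.28 CPM in GR-cKO hearts 1 to 3, which overlapped (log2 fold change 0.45, 95% interval -0.24 to 1.14). That value was 0.25 without GR-cKO replicate 2, 0.28 without control replicate 3 and up to 0.65 without GR-cKO replicate 3. Its exons overlap those of an expressed gene on the opposite strand, and whether counting used strand is not stated. Tgfa and Btc, which encode the EGFR ligands transforming growth factor alpha and betacellulin, were at 1.04 ± 0.145 and 0.928 ± 0.378 CPM in control and 0.923 ± 0.365 and 1.03 ± 0.424 CPM in GR-cKO hearts (n = 3 per group, ± SD). Of the other neuregulins, Nrg2, with 3 to 27 reads a library, was left untested. Nrg4, which overlaps Fbxo22 on the opposite strand, had 3 to 16 reads per library (log2 fold change -0.03, 95% interval -1.80 to 1.75). Nrg3 had 0 reads in all 6 libraries, and 3 reads, the limit taken here for a count of 0, would be 0.168 CPM of all mouse gene reads in the shallowest of them. Areg, Ereg and Epgn had 0 to 14 reads per library and were not tested.

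Of the 6 tested ligands, 1, Nrg1, had groups that did not overlap, against 9.97% of all tested genes in either direction, and with 6 genes this count is no result about the ligands. In both groups Hbegf outnumbered Nrg1 in reads. The ratio of Hbegf to Nrg1 reads ran from 22.0 to 30.9 in control and from 43.3 to 136 in GR-cKO hearts. These ratios did not overlap, and they use the Nrg1 reads already given.

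Erbb2 (ENSMUSG00000062312, chromosome 11, 98412470 to 98437716, plus strand), the shared partner receptor, was the most abundant receptor. It was at 17.1, 13.9 and 17.4 CPM in control hearts 1 to 3 against 16.5, 13.4 and 25.4 CPM in GR-cKO hearts 1 to 3. GR-cKO replicate 3 was far above the other 5 hearts, and GR-cKO replicate 2 was the lowest on this scale, close to control replicate 2. For Erbb2 the difference on the log2 scale was 0.19 (SE 0.21, 95% interval -0.26 to 0.64, edgeR adjusted p = 0.998), and without GR-cKO replicate 3 it turned to -0.11. The last 9 bases of Erbb2 (chromosome 11, 98437708 to 98437716) overlap the 3′ end of Mien1 on the opposite strand. Mien1 had 809 to 935 reads per library, so the Erbb2 count carries some uncertainty if strand was not used.

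Erbb4 (ENSMUSG00000062209, chromosome 1, 68032186 to 69108059, minus strand), the neuregulin receptor of cardiomyocytes, was at 11.9, 18.2 and 13.1 CPM in control hearts 1 to 3 against 14.1, 13.9 and 17.6 CPM in GR-cKO hearts 1 to 3. Control replicate 2 and GR-cKO replicate 3 were the highest, 1 in each group. Group means were 14.4 ± 3.38 and 15.2 ± 2.10 CPM (SD, n = 3 each), and both groups happened to total 876 reads. The difference on the log2 scale was 0.08 (SE 0.20, 95% interval -0.34 to 0.50, edgeR adjusted p = 0.999). It turned to -0.04 without control replicate 1 or without GR-cKO replicate 3.

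The heart with the highest sum of cardiomyocyte markers, though not of each marker, was also the one with the highest Erbb2. GR-cKO replicate 3, with markers at 57050 CPM, had Erbb2 at 25.4 CPM and Erbb4 at 17.6 CPM. On this scale GR-cKO replicate 2 had the lowest marker sum (45200 CPM, next to 46850 CPM in control replicate 2) and the lowest Erbb2, 13.4 CPM. Both quantities carry the same TMM factors, 1.056 in GR-cKO replicate 2 and 0.904 in GR-cKO replicate 3. Without these factors, as CPM of all mouse gene reads, Erbb2 was at 14.1 in both GR-cKO replicate 2 and control replicate 2. In GR-cKO replicate 3 it was at 22.9, still the highest. The marker sums were not compared without these factors, so the shared low rank of GR-cKO replicate 2 is given for the scaled values only. Erbb4 did not share the order of Erbb2, since its highest level, 18.2 CPM, was in control replicate 2 with a marker sum of 46850 CPM. The summed markers ranged from 46850 to 47910 CPM in control and from 45200 to 57050 CPM in GR-cKO hearts, with 6 of 8 higher and 2 lower and none past the threshold. Their part in the receptor levels was not tested.

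**Figure D2:**
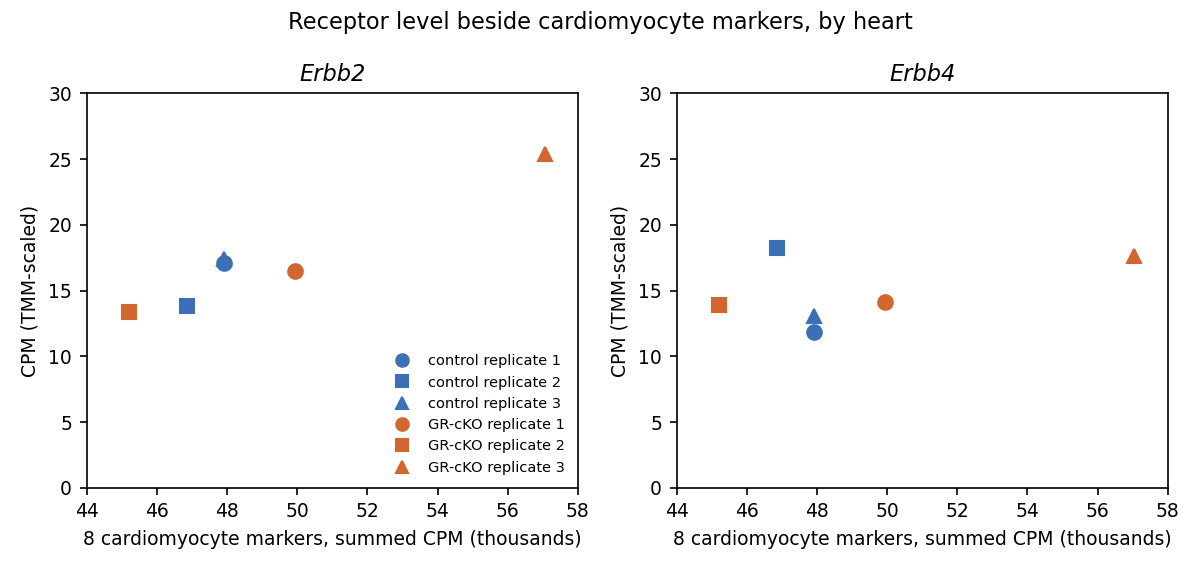
Level of Erbb2 (left) and Erbb4 (right) in CPM against the summed level of 8 cardiomyocyte markers, 1 point per heart, the x axis not starting at 0. GR-cKO replicate 3 lies to the right in both panels and is highest for Erbb2 (25.4 CPM), while control replicate 2 is highest for Erbb4 (18.2 CPM).

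Erbb3 (ENSMUSG00000018166, chromosome 10, 128567523 to 128589652, minus strand) encodes a neuregulin receptor with weak kinase activity that signals through its partner and is well known from Schwann cells and the cushions that form heart valves. It was at 11.1, 7.60 and 12.2 CPM in control hearts 1 to 3 against 7.82, 9.62 and 12.3 CPM in GR-cKO hearts 1 to 3. Low and high hearts occurred in both groups, and the groups overlapped over nearly their whole range. Its log2 fold change was -0.06 (SE 0.24, 95% interval -0.56 to 0.44, edgeR adjusted p = 0.999), and it turned to 0.08 without control replicate 3 and 0.09 without GR-cKO replicate 1. The 12 Schwann cell and nerve markers summed to 23.8 to 37.9 CPM in control and 26.3 to 37.9 CPM in GR-cKO hearts. A large share was Dbh alone, at 11.8 to 15.9 CPM over the hearts. Cdh19 was at 0 in control replicate 3, and Th at 0 in every library except GR-cKO replicate 2 (0.236 CPM). Sox10, a defining Schwann cell gene, was at 0.892 to 1.39 CPM in control and 0.503 to 1.23 CPM in GR-cKO hearts, far below Erbb3. The part of these cells in the Erbb3 level was not tested.

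Egfr (ENSMUSG00000020122, chromosome 11, 16752203 to 16918158, plus strand), the receptor of EGF, HB-EGF and related ligands, was the least abundant receptor. It was at 7.30, 7.65 and 6.45 CPM in control hearts 1 to 3 against 8.38, 7.78 and 6.99 CPM in GR-cKO hearts 1 to 3. The groups overlapped, with GR-cKO replicates 1 and 2 above all controls and GR-cKO replicate 3 among them. As CPM of all mouse gene reads, GR-cKO replicate 3 was at 6.32, below each control heart. The log2 fold change of Egfr was 0.11 (SE 0.23, 95% interval -0.37 to 0.60, edgeR adjusted p = 0.999).

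For the 4 receptors the 95% intervals lay between -0.56 and 0.64 on the log2 scale, so a change of 2-fold in either direction lay outside the interval of each. That of Nrg1 spanned -2.85 to -0.02 and excluded little.

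**Figure D3:**
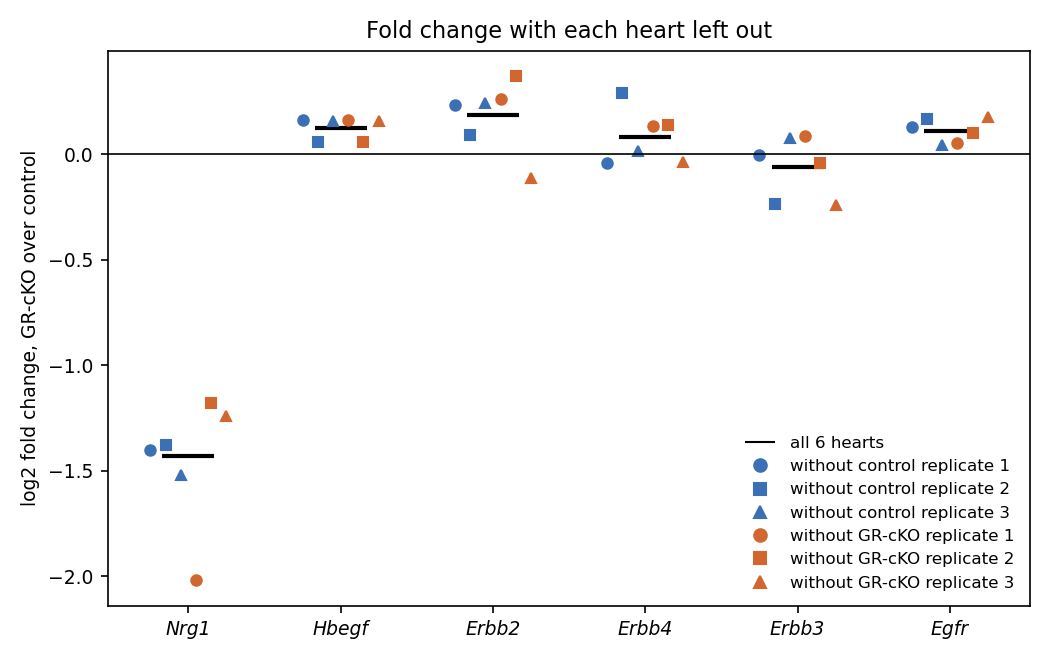
Log2 fold change, GR-cKO over control, of the 6 genes with all hearts (black bars) and with each heart left out in turn (symbols; blue for a control heart left out, orange for a GR-cKO heart). Nrg1 runs from -2.02 to -1.18 and, since its groups do not overlap, could not cross 0, whereas Erbb2, Erbb4 and Erbb3 cross it.

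Since 3′ counts do not scale with transcript length, the levels of the 6 genes are set beside each other as CPM. Their annotated 3′ ends differ, however. Coding transcripts of Erbb4 have 2 ends spanning 218 kb and those of Egfr 3 within 33.8 kb, against 1 for Erbb2, Erbb3 and Hbegf. The part of these ends in the order of levels was not tested. Over the 6 hearts the order was Hbegf (34.0 ± 2.94 CPM), Erbb2 (17.3 ± 4.32), Erbb4 (14.8 ± 2.56), Erbb3 (10.1 ± 2.09), Egfr (7.43 ± 0.669) and Nrg1 (0.856 ± 0.472; SD, n = 6 for each). Hbegf was above Erbb2 in all 6 hearts with no overlap of their ranges, and Egfr was above Nrg1 in the same way. The receptors were less clearly ordered. Erbb2 was above Erbb4 in 4 of 6 hearts and Erbb3 above Egfr in 4 of 6, and each of these neighbouring pairs had overlapping ranges. Erbb4 was above Erbb3 in all 6 hearts, although their ranges over the hearts overlapped.

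Among tested genes Hbegf stood at percentile 70.8 of mean CPM, Erbb2 at 55.3, Egfr at 37.7 and Nrg1 at 7.78. Of the reads of the 4 receptors, Erbb2 took 29.3 to 40.8%, Erbb4 25.1 to 38.5%, Erbb3 16.1 to 24.9% and Egfr 11.2 to 17.9%. The ratio of Erbb2 to Erbb4 reads, the receptors that pair in cardiomyocytes, was 1.44, 0.761 and 1.33 in control hearts 1 to 3 against 1.17, 0.963 and 1.44 in GR-cKO hearts 1 to 3, and the groups overlapped.

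The wider pathway was read from 6 lists of ligands, receptors, processing enzymes, inhibitors, adaptors and responsive genes. No gene of any list passed the adjusted threshold. Over all 14860 tested genes 7619 were higher and 7241 lower in GR-cKO hearts, with a median log2 fold change of 0.01. With each heart left out in turn, the medians of 5 lists took both signs: -0.08 to 0.13 for receptors, -0.10 to 0.22 for ligands, -0.07 to 0.04 for processing enzymes, -0.03 to 0.11 for inhibitors and -0.05 to 0.01 for adaptors. The lowest came without GR-cKO replicate 3, control replicate 1, GR-cKO replicate 3, GR-cKO replicate 2 and control replicate 2, in that order.

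Proteases and their regulators release ligands and cut receptors at the cell surface. Of the 15 tested genes of this list 8 had a positive and 7 a negative log2 fold change, with a median of 0.02. Adam17, the main sheddase of HB-EGF and neuregulin, was at 34.2 to 45.6 CPM in control hearts and within that range, at 36.5 to 42.7 CPM, in GR-cKO hearts. Its exons overlap those of Iah1 on the opposite strand. Adam10, its relative, had a log2 fold change of -0.16. Adam15, which encodes another membrane metalloprotease, was at 123, 78.4 and 114 CPM in control against 135, 124 and 131 CPM in GR-cKO hearts 1 to 3 (log2 fold change 0.31, with an unadjusted edgeR p of 0.0433). Aph1a, a subunit of the gamma-secretase that cuts ErbB4, was at 46.2, 30.6 and 51.9 CPM in control against 52.6, 56.1 and 59.0 CPM in GR-cKO hearts 1 to 3 (log2 fold change 0.38, with an unadjusted edgeR p of 0.0283). For both, control replicate 2 was the low heart, and without it the log2 fold changes were 0.14 and 0.19. With another heart left out they reached 0.43 for Adam15 (without control replicate 1) and 0.54 for Aph1a (without control replicate 3). The exons of Aph1a overlap those of Car14 on the opposite strand.

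The list of receptor inhibitors and feedback regulators had 14 of 23 tested genes higher and 9 lower, with a median of 0.05. Errfi1, which encodes an inhibitor that binds the kinase domain of ErbB receptors and is a known glucocorticoid-responsive gene, was at 10.8, 10.7 and 7.24 CPM in control against 8.15, 8.63 and 9.63 CPM in GR-cKO hearts 1 to 3. The GR-cKO hearts lay within the control range (log2 fold change -0.12, 95% interval -0.60 to 0.36). Dusp1, a phosphatase of mitogen-activated protein kinases that is also glucocorticoid-responsive, varied widely, from 50.9 to 76.3 CPM in control and from 48.1 to 101 CPM in GR-cKO hearts (log2 fold change 0.14). Its exons overlap those of Ergic1 on the opposite strand. The log2 fold change turned to -0.18 without GR-cKO replicate 2 and to -0.02 without control replicate 3. Spred2, an inhibitor of Ras-ERK signalling, was at 12.0, 9.20 and 9.55 CPM in control against 6.09, 8.06 and 8.61 CPM in GR-cKO hearts 1 to 3, without overlap (log2 fold change -0.43, with an unadjusted edgeR p of 0.0758). Lrig1, Cbl and Rnf41, which promote receptor breakdown, had log2 fold changes of -0.07, 0.05 and -0.10, with Lrig1 overlapping Slc25a26 on the opposite strand.

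Adaptors and downstream kinases had 15 of 36 tested genes higher and 21 lower, with a median of -0.04 and none at an unadjusted p under 0.05. Pik3r1, the regulatory subunit of PI3K, was at 94.5, 93.7 and 96.0 CPM in control against 84.9, 77.8 and 85.6 CPM in GR-cKO hearts 1 to 3 (log2 fold change -0.20). Mtor, the kinase of growth control, was at 28.1, 28.1 and 25.9 CPM in control against 21.8, 25.2 and 21.9 CPM in GR-cKO hearts 1 to 3 (log2 fold change -0.25). In this list 3 of 36 genes, Pik3r1, Mtor and Pik3cb, had all GR-cKO hearts below all controls, against 5.27% of all tested genes, so this count is no result about the list. Mapk3, the gene of ERK1, was at 207, 173 and 217 CPM in control against 212, 201 and 297 CPM in GR-cKO hearts 1 to 3, and its log2 fold change of 0.25 was 0.05 without GR-cKO replicate 3 and 0.35 without GR-cKO replicate 2.

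Genes known to respond to ERK signalling had the largest median of the 6 lists. Of 21 tested, 15 had a positive and 6 a negative log2 fold change, with a median of 0.26 against 0.01 for all tested genes. The hearts did not separate, however. The list's mean log2 CPM, relative to the 6 hearts, was -0.04, -0.03 and -0.11 in control hearts 1 to 3 against -0.15, 0.09 and 0.24 in GR-cKO hearts 1 to 3, so that the lowest and the highest heart were both GR-cKO. The median was 0.09 without GR-cKO replicate 2, 0.12 without GR-cKO replicate 3 and 0.39 without GR-cKO replicate 1, with 13, 13 and 17 of the 21 genes higher.

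Within that list Phlda1, a gene induced by growth factors, was at 44.4, 38.1 and 38.1 CPM in control against 44.9, 50.2 and 55.9 CPM in GR-cKO hearts 1 to 3. The groups lay apart by a narrow margin (log2 fold change 0.32, with an unadjusted edgeR p of 0.0247), and 2.07% of all tested genes met that unadjusted threshold in this direction. Ier3, an immediate early gene, was at 54.9, 49.4 and 61.6 CPM and at 58.1, 62.2 and 108 CPM, with GR-cKO replicate 3 far above the rest, and its log2 fold change was 0.46 with and 0.12 without that heart (0.63 without GR-cKO replicate 1). Dusp6, the phosphatase that ERK induces and that inactivates it, was at 35.9, 33.2 and 27.3 CPM in control against 38.5, 31.6 and 52.9 CPM in GR-cKO hearts 1 to 3. Its log2 fold change of 0.35 was 0.12 without GR-cKO replicate 3 and 0.50 without GR-cKO replicate 2. Spry2, another ERK-induced inhibitor, had 0.31 with all hearts, 0.05 without GR-cKO replicate 3 and 0.46 without GR-cKO replicate 1. The negative log2 fold changes of the list were those of Spred1 (-0.03), Etv1 (-0.23), Etv5 (-0.24), Spry4 (-0.32), Spred2 (-0.43) and Egr2 (-0.91). Of the 21 genes, 2 had all GR-cKO hearts above all controls and 2 below, against 4.7% and 5.27% of all tested genes. These counts are no result about the list. Spry2, Spry4, Dusp5, Dusp6, Spred1 and Spred2 are also in the list of inhibitors, so the 2 lists are not independent.

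**Figure D4:**
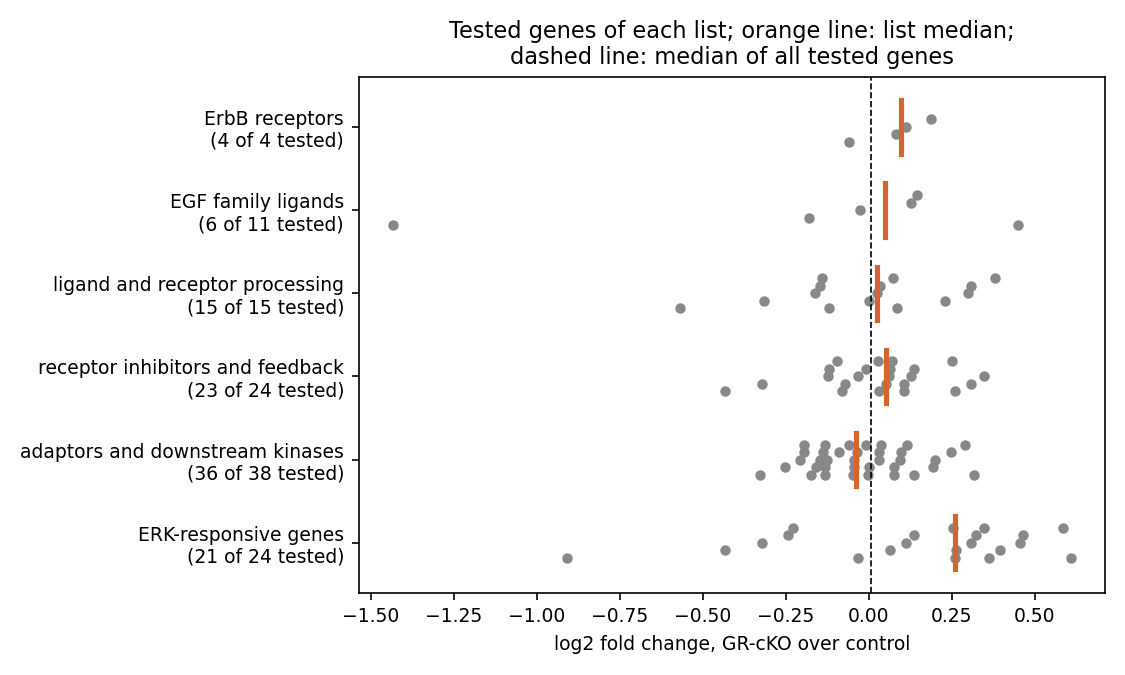
Log2 fold change, GR-cKO over control, of every tested gene (grey points) of the 6 pathway lists, with the list median in orange and the median of all tested genes as a dashed line. ERK-responsive genes have a median of 0.26, and the isolated point at the left is Nrg1 at -1.43.

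**Figure D5:**
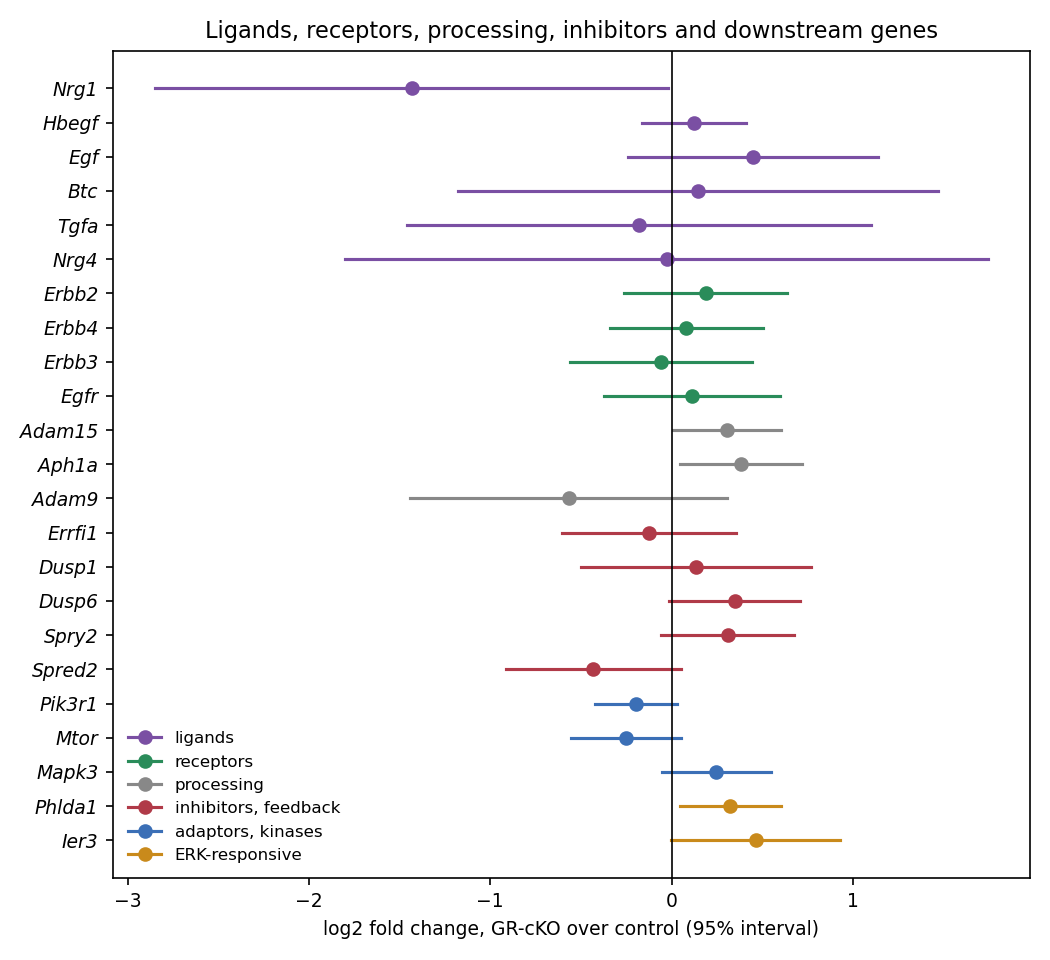
Log2 fold change, GR-cKO over control, with its 95% interval for tested ligands and receptors and for named genes of the processing, inhibitor, kinase and ERK-responsive lists. The interval of Nrg1, -2.85 to -0.02, lies below 0, and those of the 4 receptors include 0. The intervals of Aph1a (0.05 to 0.72), Adam15 (0.01 to 0.60) and Phlda1 (0.05 to 0.60) lie above 0. None of the plotted genes passed the adjusted threshold.

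The genes whose log2 CPM over the 6 hearts was most like that of each member, among genes of at least 5 CPM, are given as a description, since with 6 libraries 48 to 252 genes of about 10230 had a Pearson r over 0.9 with a given member. Nrg1 was most like Ppm1e (r = 0.982), which encodes a protein phosphatase, and Sfrp2 (r = 0.981), which encodes a secreted Wnt modulator. Sfrp2 was at 25.3, 27.8 and 24.8 CPM in control against 21.2, 16.2 and 17.9 CPM in GR-cKO hearts 1 to 3, without overlap (log2 fold change -0.49, edgeR adjusted p = 0.998). It was chosen for its likeness to Nrg1 and ranked the hearts in the same order. Its lack of overlap therefore follows from that choice and is no separate result. The groups of Ppm1e overlapped, with control replicate 3 at 19.6 CPM and GR-cKO replicate 1 at 19.8 CPM. Erbb2 was most like Idh3g (r = 0.994), a subunit of mitochondrial isocitrate dehydrogenase, and Mxd4 (r = 0.988), a MAX-binding repressor. Both share with it the high value of GR-cKO replicate 3. Erbb4 was most like Zfp81 and Cdpf1 (r = 0.986 and 0.984), Egfr like Actr1b and Ptrhd1 (0.989 and 0.984), and Hbegf like E2f3 and Dtx3l (0.998 and 0.980). Erbb3 was most like Eif4e3 (0.983) and the annotated Mir5136 gene (0.993), whose polyadenylated reads do not measure the mature microRNA.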

How the data were processed

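Counts were deposited as 1 file per library, with unnormalised whole reads for each Ensembl gene. Per the submitters' processing notes, the tools included DESeq2 1.18.1, featureCounts 1.6.2, STAR 2.5.4a and cutadapt 1.16, and the build was GRCm38. Per the labels' protocols, libraries were made with a QuantSeq 3′ FWD kit from 100 ng of RNA. For annotation release and strand setting, the sources used here give nothing. Symbols and coordinates came from GENCODE M21 (GRCm38), which matched 52403 of 52550 mouse genes. The 99 spike-in rows, 1.63 to 2.01% of reads, entered neither library sizes nor tests.

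Genes were filtered with filterByExpr and scaled by TMM. GR-cKO was tested over control with edgeR 4.0.16 (quasi-likelihood, robust; R 4.3.3), with Benjamini-Hochberg adjustment over 14860 genes, after a check on simulated data. CPM are relative to the reads of tested genes times TMM factors, and log2 CPM used a prior count of 2. Alternatives were other scalings, no filter, DESeq2 1.42.0, limma 3.58.1 (voom), no robust fitting, a replicate block and leaving out each heart.

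Members and lists (6 pathway, 12 marker) were chosen with earlier results of these data known. Genes named were the members, Nr3c1, detected EGF family ligands, Errfi1, Dusp1, Dusp6, up to 3 genes of smallest p per other list, and the 2 genes most like each member, the last of these and those of smallest p having a mean of at least 5 CPM. Etv5, Pik3cb, Adam17, Adam10, Lrig1, Cbl, Rnf41, Spry4, Egr2, Gm42418, Mien1, Sox10 and the markers at 0 were added after their values were seen. So were Postn, Actc1, Ryr2, Dbh, Etv1, Spred1, Dusp5, Cidea, Krt8, Krt18 and the single neutrophil markers.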

Additional observations from a re-analysis of the deposited data

How the results depend on the processing

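Under 14 alternatives none of the 6 members passed the adjusted threshold, and the smallest adjusted p of a member was 0.848. Nrg1, Hbegf and Egfr kept their direction in all of them. For Nrg1, whose groups did not overlap, leaving out a heart could not have reversed it. With each heart left out, the log2 fold change ran from -0.11 to 0.37 for Erbb2, -0.24 to 0.0877 for Erbb3, -0.0418 to 0.289 for Erbb4, -0.45 to 0.53 for Nrg4, -0.43 to 0.11 for Tgfa, -0.14 to 0.53 for Btc, -0.18 to 0.36 for Dusp1, -0.0137 to 0.133 for Idh3g, -0.0423 to 0.191 for Mxd4, -0.32 to 0.10 for Mir5136, -0.16 to 0.0328 for Eif4e3, -0.0305 to 0.319 for Zfp81 and -0.11 to 0.29 for Cdpf1, and the cause of these reversals was not tested. Nrg4 also turned with limma voom, to 0.076. Genes called higher numbered 0 in the reported fit, 1 with DESeq2 and 4 without a filter. Genes called lower numbered 1, against 2 by library totals, 3 with DESeq2, 6 without a filter and 1 to 2 with a heart left out. None of these genes, Nr3c1 among them, was a gene of the 6 pathway lists. The unadjusted p of Nrg1 was 0.0384 with DESeq2 and 0.0340 with limma voom, but 0.0620 without a filter and 0.0754 with spike-in scaling.

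Replicate numbers are shared by the groups, but nothing in the labels pairs the hearts. Deviations of same-numbered hearts from their group means correlated by 0.062, 0.056 and 0.014. With the replicate number as a block, the log2 fold change of Nrg1 was -1.53 (unadjusted p = 0.0555), and 0 genes were called higher and 1 lower. By Spearman's rho 3 of the 12 pairs of most alike genes were still among the highest.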

Other observations

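Adam9, which encodes a membrane metalloprotease that can release HB-EGF, was uneven among GR-cKO hearts. It was at 12.3, 12.8 and 14.1 CPM in control replicates 1, 2 and 3 and at 4.47, 15.8 and 5.97 CPM in GR-cKO replicates 1, 2 and 3, so that 2 GR-cKO hearts lay far below and the remaining one above all controls. The log2 fold change was -0.57 (edgeR adjusted p = 0.998), and it depended on single hearts. It was -1.32 without GR-cKO replicate 2 (adjusted p = 0.257), -0.25 without GR-cKO replicate 1 and -0.35 without GR-cKO replicate 3.

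Markers of other cell types that whole hearts can hold are given as summed CPM over the hearts of each group. Fibroblast markers (8) were at 3346 to 4113 in control and 3272 to 3681 in GR-cKO hearts, mural markers (8) at 957.9 to 1002 and 850.0 to 1122, and macrophage markers (8) at 138.6 to 167.9 and 148.0 to 179.4. Epicardial markers (8) were at 51.0 to 67.7 and 49.97 to 81.2. Adipose markers (6) summed to 1156 to 1625 and 1157 to 1423, nearly all of it Fabp4 (1030 to 1340 over the 6 hearts) and Cidea (117 to 167). The fat-restricted ones varied between hearts: Ucp1 was at 6.78, 89.3 and 0.42 CPM in control hearts 1 to 3 against 0, 18.8 and 3.93 CPM in GR-cKO hearts 1 to 3, and Adipoq ranged from 0 to 13.2 CPM. Of the 6 adipose markers 1 was higher and 5 lower, with a median log2 fold change of -1.54 and none past the threshold. Skeletal muscle markers (8) summed to 2362 to 2742 and 2197 to 2732, nearly all of it Ckm (2010 to 2620), which heart muscle also expresses, while Myh3, Myh1 and Myog were at 0 in at least 1 library. Lung and thymus epithelial markers (7) were at 2.83 to 5.65 and 5.64 to 6.02. Most of this sum was Krt18 (1.68 to 3.96 over the 6 hearts) and Krt8 (0.592 to 2.07). Sftpc was at 0 in each control heart and at 0.391, 0.141 and 2.31 CPM in GR-cKO hearts 1 to 3. Without a filter it was 1 of the 4 genes called higher. The 7 neutrophil markers summed to 13.1 to 15.4 CPM in control and 19.9 to 28.7 CPM in GR-cKO hearts. These sums did not overlap, and much of them was S100a8 (7.03 to 8.66 against 12.1 to 12.9 CPM). By gene, S100a8 and Ngp were higher in every GR-cKO heart, as were 4.7% of all tested genes. S100a9, Ltf, Camp, Retnlg and Lcn2 overlapped, the last 2 being at 0 in at least 1 library. The part of these cells in the levels of the 6 genes was not tested.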
